A study of Aspergillus nidulans FGSC A4 with 21 samples.

Results

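Benzo[a]pyrene (BaP) is a polycyclic aromatic hydrocarbon, and the transcripts described here are those of the filamentous fungus A. nidulans that had been listed as changed by BaP at both 6 h and 24 h. The members were the genes whose ID stands in both deposited lists of differentially expressed genes, and there were 374 of them, out of 703 genes listed at 6 h, 1503 at 24 h and 2403 at any of the 3 time points. The question was which of the early BaP transcripts kept rising, held their level or faded between 6 and 24 h. The groups were BaP-treated cultures at 24 h, BaP-treated cultures at 6 h, DMSO controls at 24 h and DMSO controls at 6 h, with 3 libraries each. All were the strain FGSC A4, grown as hyphae for 18 h at 37°C with 1% glucose, washed, and moved to minimal medium with 0.1% glucose, which held either 200 μM BaP in DMSO or the same volume of DMSO alone. The lower glucose was therefore common to all 4 groups, and the time in it differed between 6 and 24 h. The libraries are labelled as hyphae, and none of 12 genes of the asexual spore stage (*brlA*, *abaA*, *wetA*, *yA*, *wA*, *ivoB*, *conF*, *conJ*, *rodA*, *dewA*, *catA* and *vosA*) was listed at both times, so the label could not be checked with them.

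A fungus whose glucose runs low takes carbon from other compounds, among them acetate, amino acids, cell wall glucans and stored trehalose and glycogen. Acetate enters metabolism as acetyl-CoA and is built into sugars through the glyoxylate cycle, of which malate synthase is a key enzyme. Phosphoketolase splits sugar phosphates to acetyl phosphate, which acetate kinase converts to acetate with a gain of ATP. The branched-chain alpha-keto acid dehydrogenase complex commits leucine, isoleucine and valine to breakdown. Cytochrome P450 monooxygenases oxidize many aromatic compounds, BaP included.

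The values are RPKM, read counts scaled by transcript length and library size. The reads and sizes behind them were inferred from whole-number steps in the values. Sizes were sought in a preset range, with a smaller size preferred to its double, so reads may be too low by a whole factor. The sizes found are not whole numbers, and the paper reports more reads per sample than any of them. Over the shared genes the median gene had 732.5 to 951 inferred reads in the BaP libraries of 24 h and 454 to 509.5 in those of 6 h. In the DMSO libraries of 24 and 6 h it had 223 to 540.5 and 261 to 272. The size to which each library was scaled was 8.17 to 9.51 M reads (M, mega) for BaP at 24 h and 9.58 to 11.01 M for BaP at 6 h, so that library size and time cannot be told apart. Summed over the 374 genes, RPKM came to 54439 to 78231 in the BaP libraries of 24 h and to 26891 to 32688 in those of 6 h, with no overlap. The DMSO libraries of 24 h lay far apart, with 20091 in D25, 42658 in D26 and 10353 in D27, and those of 6 h lay between 12497 and 13288. D26 was nearer to the BaP cultures, and D27 was below every control of 6 h. The median absolute difference between 2 libraries of a group was 0.73 to 1.57 on the log2 scale for DMSO at 24 h, against 0.25 to 0.47 for BaP at 24 h and 0.13 to 0.31 for BaP at 6 h. Counts and medians over many genes that use the DMSO controls, and the called differences in DMSO, are given below with and without D26 and D27.

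**Figure D1:**
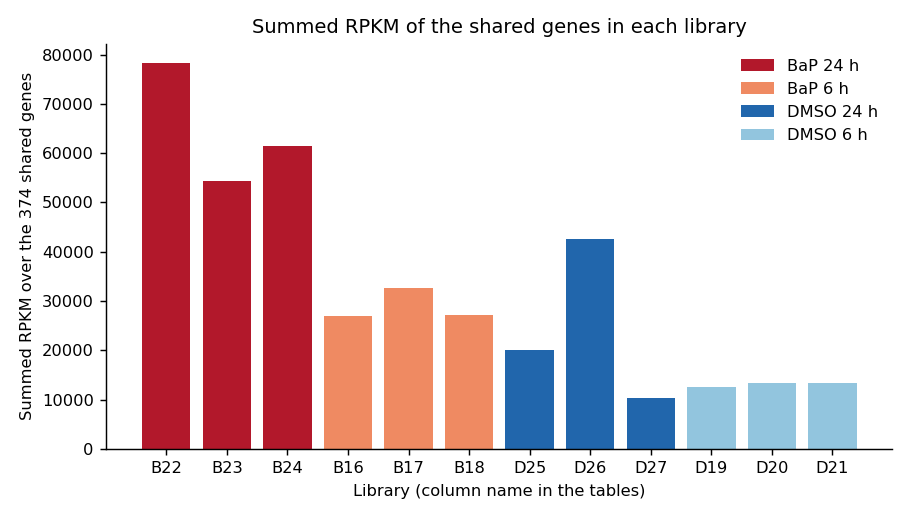
RPKM summed over the 374 shared genes (vertical axis) in each of the 12 libraries (horizontal axis, by column name), BaP at 24 h and 6 h and DMSO at 24 h and 6 h from left to right. The 3 BaP libraries of 24 h (54439 to 78231) stand above the 3 of 6 h (26891 to 32688), and the DMSO libraries of 24 h spread between 10353 and 42658.

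Between 6 and 24 h, 142 of the 374 early BaP transcripts rose in the BaP-treated cultures on the RPKM scale, 30 fell and 100 held their level. With each library centred on its own median the balance was the other way, with 38 higher and 77 lower. Differences were tested with limma on log2(RPKM + 1), where a difference of 1 means 2 times the RPKM + 1, and a gene was called when it differed by more than 1 in either direction with a Benjamini-Hochberg adjusted p under 0.05 over the 374 genes. At 24 h, 142 genes were higher than at 6 h (38.0% of those tested) and 30 were lower (8.02%), which made 46.0% in either direction. The median difference over the 374 genes was 0.78. In 235 genes (62.8%) all 3 libraries of 24 h were above all 3 of 6 h, and in 46 genes (12.3%) all 3 were below. A further 100 genes held, in the sense that the 95% interval of their difference lay within -1 and 1, and 102 met none of these conditions and are called unresolved. Held does not mean equal, since 16 of the 100 differed with an adjusted p under 0.05 in limma, and with limits of -0.5 and 0.5 only 12 genes held. Of the unresolved genes, 91 differed with an adjusted p under 0.05 in limma but by less than the limit, and 82 of the 102 had a positive difference.

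The split depended on how the 2 time points are put on 1 scale. When each library was centred on its own median over the shared genes, the median difference over the genes became -0.09. Centring takes out a shift that the shared genes had in common, and these genes were listed because they responded to BaP, so it cannot be told apart from a change of most of them. All 30 genes called lower stayed called lower after centring, and none of the 142 called higher became lower, but 104 of the 142 were then no longer called. A second, smaller offset of 0.13 on the log2 scale separates the 24 h from the 6 h values when the deposited mean expression is used as the scale in place of RPKM, and it left 123 genes higher and 32 lower. The 38 genes called higher on the centred scale as well were therefore those that rose by more than 1 beyond the common shift. Others of the 142 exceeded it by less, such as *awh11* with a centred difference of 0.97 (limma adjusted p = 0.00172).

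**Figure D2:**
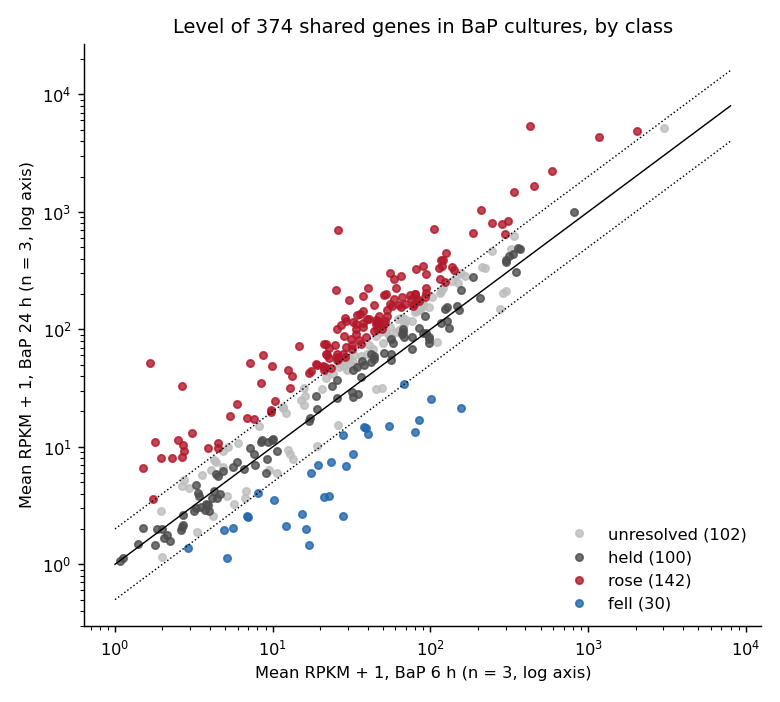
Mean RPKM + 1 of each of the 374 shared genes in BaP cultures of 24 h (vertical log axis) against BaP cultures of 6 h (horizontal log axis), 1 point per gene, coloured by class. The solid line marks equal levels and the dotted lines differences of 1 and -1. The 142 genes that rose lie above or close to the upper dotted line and the 30 that fell below or close to the lower one. Classes use means of log2(RPKM + 1), so a gene near the limit can lie just inside a line.

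The classes were not spread alike over genes that stood above and below DMSO at 6 h. Of 300 genes above DMSO, 137 rose further (45.7%), 67 held (22.3%), 88 were unresolved and 8 fell (2.67%). Of 74 genes below DMSO, 22 fell further (29.7%), 33 held (44.6%), 14 were unresolved and 5 rose (6.76%). Near 0 RPKM the added 1 draws differences toward 0, so a low gene holds more easily. The lower quartile of mean BaP RPKM at 6 h was 3.21 in held genes. It was 9.7 in fallen, 11.6 in unresolved and 20.1 in risen genes. The median difference of 24 against 6 h in BaP was 0.91 for genes above and -0.35 for genes below DMSO. These counts describe the listed genes and are not a test, since the side of DMSO uses the same BaP libraries of 6 h and the genes were listed for it. All 374 genes stood on the same side of DMSO at 24 h as at 6 h, and they did so when any 1 DMSO library was left out. The listing fixed that each gene differed from DMSO at both times, but not on which side.

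AN3883, a putative glucanase predicted to hydrolyse beta-glucan (chromosome II, 2782849 to 2784304, minus strand, in the coordinates of the deposited tables, which name no genome build), had the largest rise. It had 43.0, 41.2 and 68.3 RPKM in the BaP libraries of 24 h, against 0.455, 0.699 and 0.878 RPKM in those of 6 h. The groups were far apart, with every library of 6 h below 1 RPKM (difference 4.92, SE 0.22, limma adjusted p = 8.87e-09). In DMSO it had 19.3, 33.7 and 6.31 RPKM at 24 h and 0.217, 0.254 and 0.182 RPKM at 6 h, so the controls of 24 h were all above those of 6 h as well.

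AN9310, whose transcript is noted as induced by light in mycelia competent for development (chromosome VIII, 243746 to 244298, plus strand), followed. It had 754, 714 and 626 RPKM in the BaP libraries of 24 h, against 34.9, 20.6 and 19.04 RPKM at 6 h. The lowest library of 24 h was many times the highest of 6 h (difference 4.80, SE 0.23, limma adjusted p = 9.25e-09). In DMSO the libraries of 24 h were spread over 87.8, 304 and 16.1 RPKM, and those of 6 h had 5.05, 10.0 and 7.01.

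AN3703, described by its orthologs only (chromosome II, 3327108 to 3327989, minus strand), carried the largest amount of transcript among the large rises. It had 5405, 5285 and 5515 RPKM in the BaP libraries of 24 h, against 413, 519 and 354 RPKM at 6 h. The 3 libraries of 24 h were nearly equal and stood 12.6 times as high on average as those of 6 h (difference 3.67, SE 0.20, limma adjusted p = 1.91e-08). The DMSO libraries had 2063, 3649 and 794 RPKM at 24 h and 199, 196 and 196 RPKM at 6 h, again without overlap.

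AN2398, with a predicted O-methyltransferase domain (chromosome VII, 3799296 to 3801159, minus strand), was the gene whose rise in BaP was furthest from that in DMSO. It had 29.1, 34.3 and 32.1 RPKM in the BaP libraries of 24 h, against 1.14, 2.21 and 1.64 RPKM at 6 h (difference 3.64, SE 0.20, limma adjusted p = 2.23e-08). The DMSO libraries had 2.56, 7.18 and 1.18 RPKM at 24 h and 0.590, 0.957 and 0.507 RPKM at 6 h, and even the highest control of 24 h was below every BaP library of that time. At 48 h, where the gene was listed too, BaP cultures had 7.91, 2.02 and 3.59 RPKM and DMSO cultures 0.0629, 0.410 and 0.444, so the BaP level was lower there than at 24 h.

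The other 4 of the 8 largest rises were AN11313 and AN8195, proteins of unknown function, AN11095, described by orthologs only, and AN3433, a predicted zinc-binding transcription factor. AN11313 had 350, 127 and 171 RPKM at 24 h and 20.9, 27.7 and 24.1 RPKM at 6 h, a difference of 2.98. AN8195 had 727, 711 and 712 RPKM at 24 h and 108, 131 and 76.4 RPKM at 6 h, a difference of 2.79. AN11095 and AN3433 differed by 2.83 and 2.81, and the groups did not overlap in any of the 4 genes. All 4 rose, with limma adjusted p-values of 3.85e-06 or less.

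**Figure D3:**
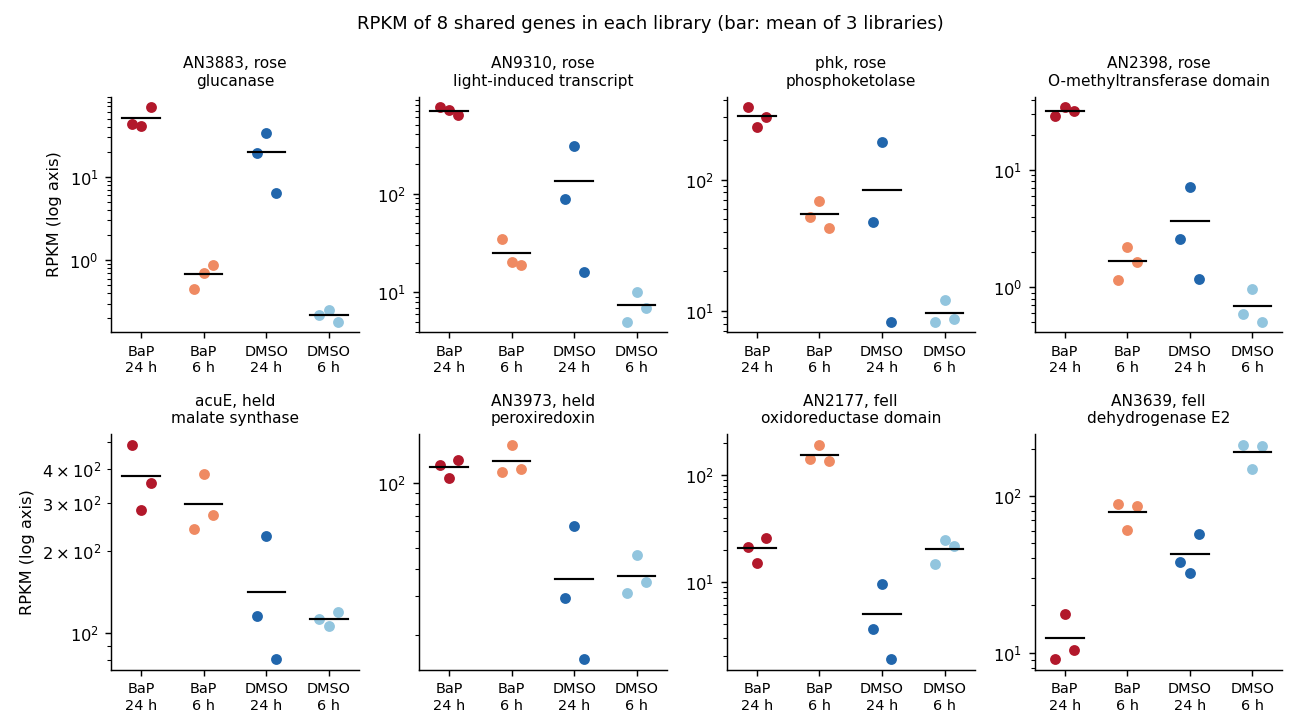
RPKM (vertical log axis, its range set for each panel) of 8 shared genes in each library, with BaP at 24 h and 6 h and DMSO at 24 h and 6 h from left to right and a bar at the mean of 3 libraries. AN3883, AN9310, *phk* and AN2398 rose in BaP, *acuE* and AN3973 held and AN2177 and AN3639 fell; the DMSO libraries of 24 h are the widest spread in most panels.

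The genes with the highest level in BaP were AN3703, *awh11*, AN3627, AN6633 and AN3724, and together they held 32.4 to 35.7% of the summed RPKM of the shared genes in the BaP libraries of 24 h, against 24.2 to 25.5% in those of 6 h. *awh11*, a developmentally regulated protein resembling Wh11p of Candida albicans, had 5993, 3306 and 3705 RPKM at 24 h and 1104, 1417 and 1012 RPKM at 6 h, and it rose by 1.84 (SE 0.24, limma adjusted p = 2.34e-05). AN3724 had 3121, 1697 and 1923 RPKM at 24 h and 555, 701 and 512 RPKM at 6 h and rose by 1.89. *awh11* and AN3724 overlap each other by 734 bases on opposite strands of chromosome II. The libraries were strand specific, but it is not given in the sources used here whether strand was used for counting, so the reads of the pair may be shared. AN6633, noted as induced by nitrate, rose by 1.23 and had 6722, 4020 and 3905 RPKM at 24 h against 1868, 2455 and 1771 RPKM at 6 h. Without B22, its highest library, the difference was 0.98 and below the limit. AN3627 had 6703, 3891 and 4851 RPKM at 24 h and 2915, 3260 and 2909 RPKM at 6 h, a difference of 0.73 that was under the limit although the groups did not overlap.

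Of the 15 shared genes of central carbon and two-carbon metabolism, all above DMSO at 6 h, 7 rose, 0 fell, 4 held and 4 were unresolved, with a median difference of 0.87 against 0.78 over all shared genes. The 7 risen genes were 46.7% of the list, against 38.0% of all shared genes and 45.7% of those above DMSO at 6 h. On the centred scale 2 rose and the median was -0.00. The same genes had a median difference of 0.83 in DMSO, 0.23 without D26 and 1.43 without D27. The largest rise was that of *phk*, the putative phosphoketolase (chromosome III, 578121 to 580985, plus strand), with 354, 252 and 299 RPKM in the BaP libraries of 24 h and 51.9, 68.4 and 43.0 RPKM at 6 h. Its libraries of 24 h were all several times those of 6 h (difference 2.46, SE 0.22, limma adjusted p = 1.44e-06). In DMSO, *phk* had 47.6, 192 and 8.29 RPKM at 24 h and 8.28, 12.1 and 8.62 RPKM at 6 h, and the control D27 stayed at the level of 6 h while D26 was close to the BaP cultures.

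*ack*, the putative acetate kinase that uses the product of phosphoketolase, lies 317 bases from *phk* on the other strand (576038 to 577803), and both genes rose. *ack* had 207, 169 and 188 RPKM in BaP at 24 h and 58.6, 78.3 and 57.4 RPKM at 6 h, a difference of 1.53. *pgmA*, a phosphoglycerate mutase of glycolysis, rose by 1.95 and had 235, 158 and 194 RPKM at 24 h against 44.1, 58.1 and 46.4 RPKM at 6 h. *maeB*, which oxidizes malate to pyruvate, rose by 1.45, *gfdB*, a glycerol 3-phosphate dehydrogenase, by 1.33, AN3901, a lactic acid dehydrogenase, by 1.16 and *coaT*, a CoA-transferase acting on propionyl-CoA, by 1.13. Of these, *phk* and *pgmA* were also called on the centred scale.

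*acuE*, the malate synthase needed for growth on acetate (chromosome I, 2741905 to 2743948, minus strand), held its level. It had 491, 283 and 356 RPKM in BaP at 24 h and 240, 383 and 272 RPKM at 6 h. The groups overlapped, and the difference of 0.33 had a 95% interval of -0.20 to 0.86 (limma adjusted p = 0.24). *pfkA*, the putative 6-phosphofructokinase, *galF*, which makes UDP-glucose, and AN10060, a glycogen debranching enzyme, held as well, with differences of 0.46, 0.46 and 0.57. *treB*, the trehalase, and AN10533, a putative trehalose-6-phosphate synthase, had differences of 0.84 and 0.87 and were unresolved.

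Among 11 polysaccharide and cell wall enzymes 5 rose (45.5%, against 38.0% of all shared genes) and 2 fell (18.2%, against 8.02%). A further 2 held and 2 were unresolved. Below DMSO at 6 h stood 7 of the 11, a side where 6.76% of genes rose and 29.7% fell. The median difference was 0.46, and on the centred scale 2 were higher and 4 lower, with a median of -0.41. After AN3883, the largest rise was that of AN10779, a putative transglycosidase needed for 1,6-beta-glucan synthesis. It had 51.2, 43.3 and 47.4 RPKM in BaP at 24 h and 9.68, 8.26 and 8.81 RPKM at 6 h, with tight groups far apart (difference 2.28, SE 0.18, limma adjusted p = 6.64e-07). AN10779 moved in DMSO too, where it had 21.3, 40.8 and 14.6 RPKM at 24 h and 3.48, 3.54 and 3.69 RPKM at 6 h (difference 2.42, limma adjusted p = 0.0184). Its difference in DMSO was 2.03 without D26 and 2.74 without D27, called in both cases, but it lost the call without any 1 of the other 4 controls (adjusted p 0.0974 to 0.152). *abfA*, an alpha-L-arabinofuranosidase, rose by 1.81, *gelD*, a 1,3-beta-transglycosidase, by 1.62 and *abnD*, an arabinan endo-arabinosidase, by 1.59. *gelD* stood below DMSO at both times, with 7.21 RPKM in BaP and 14.5 in DMSO at 24 h and 1.66 and 3.74 RPKM at 6 h.

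The 2 enzymes of that list that fell were *mndB*, a beta-mannosidase, and *exgB*, a beta-1,6-glucanase. *mndB* had 4.69, 6.64 and 6.21 RPKM in BaP at 24 h and 31.6, 25.4 and 26.97 RPKM at 6 h and fell by 2.09 (SE 0.19, limma adjusted p = 2.17e-06). *exgB* had 0.427, 0.517 and 0.199 RPKM at 24 h and 1.99, 1.44 and 2.21 RPKM at 6 h and fell by 1.06. It lost its call without B24 or without B18, with differences of -0.96 and -0.98. *rglA*, a rhamnogalacturonan lyase of pectin breakdown, held with a difference of -0.27.

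In amino acid metabolism 4 of 10 genes fell (40%, against 8.02% of all shared genes), 2 rose (20%, against 38.0%) and 4 were unresolved. Below DMSO at 6 h stood 4 of the 10, a side where 29.7% of genes fell. The median difference was 0.65; on the centred scale 4 were lower and 1 was higher, and the median was -0.22. The fallen genes included 2 subunits of the dehydrogenase complex that breaks down branched-chain keto acids. AN3639, the putative E2 transacylase (chromosome II, 3522011 to 3523922, minus strand), had 9.09, 17.5 and 10.4 RPKM in BaP at 24 h and 89.2, 60.9 and 86.4 RPKM at 6 h. AN8559, the putative E1 beta subunit (chromosome V, 863365 to 864621, minus strand), had 9.60, 23.1 and 14.7 RPKM at 24 h and 100.3, 63.0 and 88.3 RPKM at 6 h. In both genes every library of 24 h was far below every library of 6 h, and they fell by 2.61 (SE 0.25, limma adjusted p = 2.3e-06) and by 2.39 (SE 0.28, limma adjusted p = 9.76e-06). Both were below DMSO at both times, and in DMSO they fell too, by 2.16 and by 1.89 (limma adjusted p = 0.0184 and 0.0195). The falls in DMSO were 1.98 and 1.66 without D26 and 2.39 and 2.10 without D27, called in both cases, but neither gene was called in DMSO without any 1 of D25, D19, D20 and D21 (adjusted p 0.0974 to 0.162).

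*hlyA*, the lyase that ends leucine breakdown, fell by 1.44, with a mean of 1.57 RPKM in BaP at 24 h against 5.90 at 6 h. *qutG*, a putative inositol monophosphatase inducible by quinate, fell by 1.55 and had 2.53, 2.77 and 2.21 RPKM at 24 h against 9.94, 8.70 and 9.12 RPKM at 6 h. It entered this list, and that of lipid metabolism, by words of its description, which does not name it as an amino acid enzyme. The 2 risen genes of the list were AN3897, an ammonia-lyase of phenylalanine breakdown, and *agaA*, the arginase that makes urea and ornithine. AN3897 had 230, 153 and 196 RPKM at 24 h and 35.9, 40.6 and 32.2 RPKM at 6 h and rose by 2.37 (SE 0.21, limma adjusted p = 1.18e-06). *agaA* rose by 1.04 and lost its call without B22, where the difference was 0.77, and without B16, where it was 0.86.

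Membrane transporters and channels were the largest list of named function with no fallen gene. Of 33 genes 18 rose (54.5%, against 38.0% of all shared genes), 10 held and 5 were unresolved, and the median difference was 1.15. On the centred scale 5 were higher and 4 lower, with a median of 0.28. Above DMSO at 6 h stood 27 of the 33, a side where 45.7% of genes rose and 2.67% fell. AN10692, a predicted transmembrane transporter, had 14.1, 8.58 and 8.91 RPKM in BaP at 24 h and 1.36, 1.86 and 1.28 RPKM at 6 h and rose by 2.18. AN10782, a putative phosphate carrier of mitochondria, had 327, 242 and 288 RPKM at 24 h and 60.7, 74.5 and 56.1 RPKM at 6 h and rose by 2.14. AN8621, another predicted transporter, rose by 2.01 to 8.75, 2.48 and 5.51 RPKM at 24 h, against 0.377, 0.643 and 0.504 RPKM at 6 h. *mstB*, a putative sugar transporter, and *dicA*, a dicarboxylate antiporter of mitochondria, rose by 1.80 and 1.46. *pmaA*, the proton pump of the plasma membrane, held near its high level, with a mean of 995 RPKM at 24 h and 808 at 6 h (difference 0.28), and AN10152 held at 0.511 to 1.25 RPKM at 24 h and 0.580 to 1.28 RPKM at 6 h.

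Of 25 mitochondrial genes 13 rose (52%, against 38.0% of all shared genes), 0 fell, 3 held and 9 were unresolved, with a median of 1.02. On the centred scale 2 were higher and 1 lower, with a median of 0.14. Above DMSO at 6 h stood 23 of the 25, a side where 45.7% of genes rose and 2.67% fell. Beside AN10782, AN1066, whose orthologs assemble respiratory complex IV, rose by 2.14, with 334, 184 and 276 RPKM in BaP at 24 h and 52.2, 66.8 and 54.5 RPKM at 6 h. AN12169, located to mitochondria by its orthologs, rose by 1.65, and *ndeA*, a putative NADH dehydrogenase, by 1.32. AN10745, which is also located to mitochondria, held with a difference of -0.05.

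Of 13 genes of lipid metabolism 8 rose (61.5%, against 38.0% of all shared genes) and 1 fell (7.69%, near the 8.02% of all). A further 1 held and 3 were unresolved, and the median was 1.22. On the centred scale 1 was higher and 1 lower, with a median of 0.35. Above DMSO at 6 h stood 12 of the 13, a side where 45.7% of genes rose. *nce102*, which keeps membrane eisosomes stable and restrains sphingolipid synthesis, had 1746, 1246 and 1414 RPKM in BaP at 24 h and 309.6, 408 and 300.1 RPKM at 6 h. Its groups did not overlap, and it rose by 2.11 (SE 0.21, limma adjusted p = 2.69e-06). AN2477, whose orthologs scramble phospholipids, rose by 1.70 and AN7604, a putative phospholipase, by 1.61. The fallen gene was *qutG*, named above, and AN5564, a putative phosphatidyl synthase, held with a difference of 0.49.

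**Figure D4:**
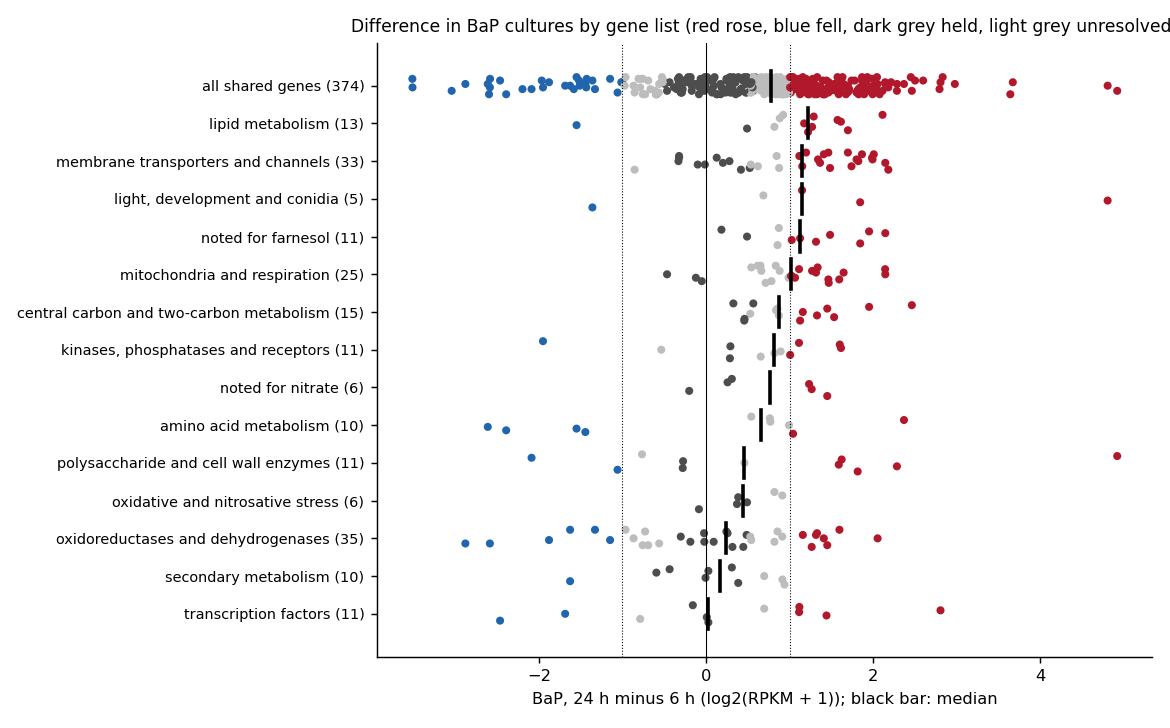
Difference between BaP cultures of 24 h and 6 h on the log2(RPKM + 1) scale (horizontal axis) for all shared genes and for each list of 5 or more members (vertical axis, list size in brackets), 1 point per gene, coloured by class, with a black bar at the median. The dotted lines mark the limits of -1 and 1; the bar of all shared genes stands at 0.78, that of lipid metabolism at 1.22 and that of the transcription factors at 0.03.

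Oxidoreductases and dehydrogenases went both ways. Of 35 genes 8 rose (22.9%, against 38.0% of all shared genes) and 6 fell (17.1%, against 8.02%). A further 10 held and 11 were unresolved, and the median was 0.24. On the centred scale 1 was higher and 14 were lower, with a median of -0.63. Above DMSO at 6 h stood 30 of the 35, a side where 45.7% of genes rose and 2.67% fell. AN2177, with a predicted oxidoreductase domain (chromosome VII, 3115535 to 3117165, plus strand), faded most of all genes above DMSO. It had 21.02, 14.99 and 25.7 RPKM in BaP at 24 h, against 141, 193 and 135 RPKM at 6 h. Every library of 24 h was far below the lowest library of 6 h (difference -2.88, SE 0.23, limma adjusted p = 6.64e-07). In DMSO it had 3.59, 9.49 and 1.89 RPKM at 24 h and 14.8, 24.9 and 21.5 RPKM at 6 h, so the BaP cultures were above the controls at both times while both were lower at 24 h.

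AN7162, with an FMN-binding reductase domain, fell by 2.59, to 0.883, 2.04 and 0.441 RPKM at 24 h against 9.66, 11.3 and 12.6 RPKM at 6 h. AN6407, whose orthologs act on steroids, fell by 1.88, to 16.01, 11.99 and 13.9 RPKM at 24 h against 48.9, 57.2 and 55.5 RPKM at 6 h. The largest rises of the list, beside *maeB*, were those of AN6963, a flavin-linked sulfhydryl oxidase, by 2.05 and of AN7293, with an oxidoreductase domain, by 1.60. AN6963 was a low transcript, with 8.19, 6.48 and 6.64 RPKM at 24 h and 0.701, 1.28 and 0.902 RPKM at 6 h. AN7339, of the same list, held with a difference of -0.02.

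Among 11 transcription factors 4 rose (36.4%, near the 38.0% of all shared genes) and 2 fell (18.2%, against 8.02%). A further 3 held and 2 were unresolved, and the median was 0.03. On the centred scale 1 was higher, 4 were lower and the median was -0.85. Below DMSO at 6 h stood 5 of the 11, a side where 29.7% of genes fell. AN3433 had 35.4, 52.3 and 63.5 RPKM in BaP at 24 h and 5.36, 7.44 and 5.83 RPKM at 6 h. AN3768 and AN8636, both with zinc-binding domains, rose by 1.44 and 1.12. AN6858 fell by 2.46, to 2.66, 3.09 and 2.48 RPKM at 24 h against 23.2, 13.6 and 23.7 RPKM at 6 h, and AN8357 fell by 1.69, to 8.22, 4.32 and 6.64 RPKM against 19.8, 25.3 and 21.9 RPKM. AN6858 was below and AN8357 above DMSO at both times. AN10463 held, but at under 0.3 RPKM in every BaP library, where a change could hardly show.

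Among 11 kinases, phosphatases and receptors 4 rose (36.4%) and 1 fell (9.09%), near the 38.0% and 8.02% of all shared genes. A further 2 held and 4 were unresolved, and the median was 0.82. On the centred scale 0 were higher and 2 lower, with a median of -0.06. Of the 11, 9 stood above DMSO at 6 h, a side where 45.7% of genes rose and 2.67% fell. *hk2*, a putative histidine-containing phosphotransfer protein, rose by 1.61 and had 69.6, 76.4 and 60.7 RPKM in BaP at 24 h and 23.4, 22.5 and 19.5 RPKM at 6 h. *hk-8-1*, a protein of the same kind, held with a difference of 0.29. AN4057, a predicted dual-specificity phosphatase, rose by 1.60 and *gprJ*, a G-protein coupled receptor, by 1.11. *tapA*, a phosphatase inhibitor of TOR signalling, fell by 1.95, to 6.05, 11.7 and 5.09 RPKM at 24 h against 35.5, 23.1 and 35.0 RPKM at 6 h.

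Of 6 genes of oxidative and nitrosative stress 0 rose and 0 fell, against 38.0% and 8.02% of all shared genes. All 6 stood above DMSO at 6 h, a side where 45.7% of genes rose and 2.67% fell. A further 4 held and 2 were unresolved, with a median difference of 0.44, and centring changed no call. AN3973, a putative peroxiredoxin that reduces peroxides, had 121, 105 and 127 RPKM in BaP at 24 h and 112, 150 and 116 RPKM at 6 h. The groups overlapped (difference -0.09, 95% interval -0.50 to 0.33, limma adjusted p = 0.699). *fhbB*, a flavohemoprotein, and AN10260, noted as induced by menadione, held with differences of 0.39 and 0.37. AN8815 and AN0432, an isoflavone reductase family protein and a cytochrome b5 reductase, had differences of 0.91 and 0.82 and were unresolved.

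The 3 cytochrome P450 genes all held, against 26.7% of all shared genes. CYP505A8 had 12.3, 7.49 and 11.99 RPKM in BaP at 24 h and 8.69, 10.0 and 8.35 RPKM at 6 h, with overlapping groups (difference 0.18, 95% interval -0.28 to 0.65). CYP687A1 and CYP5080D1, both at mean levels under 2 RPKM, had differences of -0.34 and -0.30. In BaP, CYP687A1 had 11, 20 and 9 inferred reads at 24 h and 19, 20 and 26 at 6 h. CYP5080D1 had 12, 9 and 8 at 24 h and 17, 18 and 16 at 6 h. At such levels the added 1 RPKM draws differences toward 0, so held says little for these 2 genes. On the centred scale 2 of the 3 were called lower.

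Of 4 genes of DNA repair 1 rose (25%, against 38.0% of all shared genes) and 0 fell (against 8.02%). All 4 stood above DMSO at 6 h, a side where 45.7% of genes rose and 2.67% fell. AN0604, whose orthologs excise pyrimidine dimers, had 24.5, 14.0 and 20.6 RPKM in BaP at 24 h and 8.02, 9.26 and 8.85 RPKM at 6 h (difference 1.06, SE 0.22, limma adjusted p = 0.000721). The groups did not overlap, but the difference was 0.89 without B22 and 0.19 on the centred scale, both below the limit. AN6114, with primase and lyase activities in its orthologs, held with a difference of 0.13. *uvsD*, of the DNA damage checkpoint, had a difference of 0.75 and AN10840, of base-excision repair, 0.87.

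Secondary metabolism genes rose in 0 of 10 cases, against 38.0% of all shared genes, and fell in 1 (10%, against 8.02%). A further 6 held and 3 were unresolved, with a median of 0.17 (centred, 3 were lower, with a median of -0.71). Of the 10, 6 stood above DMSO at 6 h, where 45.7% of genes rose and 2.67% fell. The other 4 stood below, where 6.76% rose and 29.7% fell. AN9002, a predicted monooxygenase of a secondary metabolism cluster, fell by 1.63, to 15.6, 8.23 and 11.97 RPKM in BaP at 24 h against 34.0, 53.2 and 29.8 RPKM at 6 h. *inpB*, a nonribosomal peptide synthetase, held at 0.0301 to 0.105 RPKM at 24 h and 0.0449 to 0.117 RPKM at 6 h, which is too low to show a change. *pkfA*, the polyketide synthase of aspernidine A, had a difference of 0.94.

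Of 5 genes noted for light, development or conidia 3 rose (60%, against 38.0% of all shared genes) and 1 fell (20%, against 8.02%). All 5 stood above DMSO at 6 h, a side where 45.7% of genes rose and 2.67% fell. On the centred scale 1 was higher and 1 lower. Beside AN9310 and *awh11*, SpoC1-C1C, a conidium-specific RNA, rose by 1.15 and had 74.6, 54.6 and 53.2 RPKM in BaP at 24 h and 28.8, 30.5 and 21.2 RPKM at 6 h. Without B22 or without B18 its difference was 0.99 and below the limit. *cetL*, enriched in dormant conidia, fell by 1.36, to 18.6, 10.8 and 11.6 RPKM at 24 h against 30.9, 49.9 and 29.2 RPKM at 6 h. On the centred scale AN9310 was called higher (3.93) and *cetL* lower (-2.23), while *awh11* (0.97) and SpoC1-C1C (0.27) were not called.

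Of 11 genes noted as responding to farnesol 7 rose (63.6%, against 38.0% of all shared genes), AN10782, *pgmA* and *awh11* by most. None of the 11 fell, against 8.02% of all. Their median was 1.13, and on the centred scale 2 were higher. All 11 stood above DMSO at 6 h, a side where 45.7% of genes rose and 2.67% fell. Of 6 genes noted for nitrate 3 rose (50%, against 38.0% of all shared genes) and 0 fell (against 8.02%). Their median was 0.77, and on the centred scale 1 was lower. Of the 6, 5 stood above DMSO at 6 h, where 45.7% of genes rose and 2.67% fell. The 3 risen genes noted for nitrate were *maeB*, AN6633 and AN8058, a molybdenum-binding oxidoreductase that rose by 1.26. AN1261 held with a difference of -0.20. The 1 transfer RNA gene in both lists, that of alanine with an AGC anticodon, rose by 1.55 to a mean of 329 RPKM at 24 h against 113 RPKM at 6 h, in libraries made from polyadenylated RNA.

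Besides AN2177, 7 genes above DMSO at 6 h fell, which were AN8026, AN6407, AN8357, AN9002, AN2800, *cetL* and AN8398. AN8026, described by its orthologs only, had 3.76, 2.73 and 2.00 RPKM in BaP at 24 h and 19.4, 22.6 and 22.8 RPKM at 6 h and fell by 2.58 (SE 0.21, limma adjusted p = 6.64e-07). All 8 faded genes were lower at 24 h in DMSO as well by their means, and 5 of them by more than 1 (8 without D26 and 3 without D27). They stood above DMSO at 24 h as well, with a median distance of 1.40 on the log2 scale, against 1.85 at 6 h. At 24 h it was 1.99 without D26 and 0.99 without D27. Listing at both times fixed that each gene differed from DMSO at 24 h. A gene back at the DMSO level could not be among them.

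The largest falls below DMSO were those of AN11034, with a predicted catalytic domain (chromosome II, 694442 to 696480, plus strand), AN5374, a protein of unknown function, AN8404, whose orthologs bind phospholipids and regulate Ras signalling, and AN3639, named above, followed by AN2777, with a predicted catalytic domain. AN11034 had 0.763, 2.89 and 1.04 RPKM in BaP at 24 h and 27.8, 20.8 and 32.1 RPKM at 6 h and fell by 3.51 (SE 0.28, limma adjusted p = 6.64e-07). AN5374 had 0.708, 0.446 and 0.206 RPKM at 24 h and 20.9, 11.2 and 15.5 RPKM at 6 h, also a fall by 3.51. AN8404 fell by 3.04 and AN2777 by 2.60, next to the 2.61 of AN3639. In each of these genes all 3 BaP libraries of 24 h were far below those of 6 h. Their differences in DMSO were negative too, with -3.67 for AN5374. AN11034 had 281, 127 and 506 inferred reads in DMSO at 24 h and 2003, 1096 and 1639 at 6 h.

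Near the limit of 1, the genes just past it were *ptpA*, a phosphotyrosine phosphatase of osmotic signalling, with 1.01, AN7850 with 1.01 and AN1515 with -1.004, and those just short of it were *cyp9*, a peptidyl-prolyl isomerase, with 1.00, *aroC*, the chorismate mutase, with 0.99 and AN4162 with 0.99. All 6 had groups that did not overlap. The border between risen and unresolved genes is thus not a gap in the data.

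The same hours in DMSO, as background, shifted the mean of most of these genes the same way but with far more spread. In DMSO, 10 genes were called higher at 24 h (2.67%) and 17 lower (4.55%), or 7.22% in all, while the median difference was 0.63, close to the 0.78 of the BaP cultures. The median SE was 0.45 in DMSO and 0.21 in BaP. The count of calls in DMSO went to 54 without D26, 209 without D27, 1 without D25, 0 without D19, 1 without D20 and 0 without D21, and the median difference was 0.23 without D26 and 0.98 without D27. Of the 142 genes that rose in BaP, 141 had a positive difference in DMSO and 96 one over 1; AN6633 was the exception, at -0.46. Without D26 these counts were 133 and 32, and without D27 they were 142 and 130. Of the 30 that fell in BaP, all had a negative difference in DMSO, also without D26 or D27, and 24 one under -1 (27 without D26 and 24 without D27). The shared genes were listed on both treatments, so these counts describe them only.

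**Figure D5:**
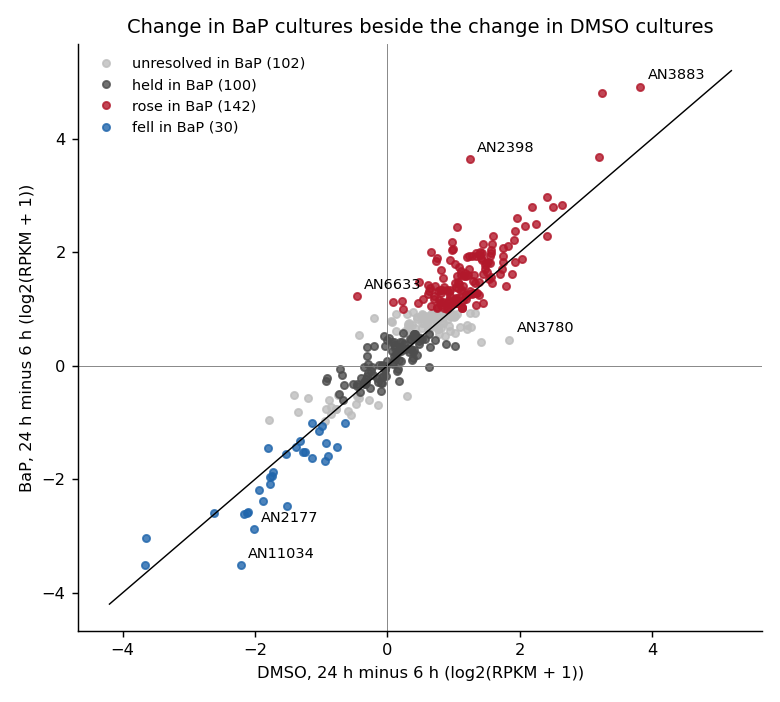
Difference between 24 h and 6 h on the log2(RPKM + 1) scale in BaP cultures (vertical axis) and in DMSO cultures (horizontal axis), 1 point per shared gene, coloured by its class in BaP, with a line of equal change. Risen genes lie to the right and fallen genes to the left of 0 but for AN6633, and AN2398 stands 2.39 above the line.

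Whether the change over time differed between BaP and DMSO was tested in all 12 libraries with limma as the BaP change minus the DMSO change, which is also the BaP effect at 24 h minus that at 6 h and in which a scale offset between the 2 time points cancels. Of 374 genes, 0 were called (0%), the smallest adjusted p was 0.394, and 7 had an unadjusted p under 0.05; limma's voom on the recovered reads called 0 as well, with 6 at an unadjusted p under 0.05. The median value was 0.135. Members had to be listed as changed by BaP at both times, so a gene with an effect at only 1 time could not enter. The 0 calls therefore say nothing about such genes. The 95% interval reached a median of 1.13 to either side, and for 326 genes it reached past 1 or -1, so that at this spread a difference of 1 could not be told from 0 for most genes. It lay within -1 and 1 for 48 genes. The median distance between BaP and DMSO was 1.55 at 24 h and 1.30 at 6 h for the genes above DMSO, and -1.11 and -1.06 for those below. At 24 h it was 2.02 without D26 and 1.09 without D27 for the genes above, and -1.21 and -0.98 for those below.

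The 7 genes with an unadjusted p under 0.05 were AN2398, AN3780, AN10692, AN8621, AN11921, AN6963 and AN11034, chosen after their values had been seen. AN2398 had a value of 2.39 (95% interval 1.17 to 3.61, limma adjusted p = 0.394). It was called when D26 was left out (2.91, limma adjusted p = 0.00027), when D26 and D27 were both left out (2.55, limma adjusted p = 0.000119) and when the libraries were centred (2.21, limma adjusted p = 0.00356). AN3780, a putative alpha-L-rhamnosidase, had a value of -1.39 (95% interval -2.41 to -0.36, limma adjusted p = 0.996), with a mean of 1.85 RPKM in BaP and 10.4 in DMSO at 24 h and 0.961 and 2.09 RPKM at 6 h. Over the 374 genes the median of the test was 0.53 without D26 and -0.19 without D27, so that its sign rested on these controls.

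Of the 374 genes 198 were also listed at 48 h, 86 of the 142 risen (60.6%), 48 of the 100 held (48.0%), 51 of the 102 unresolved (50.0%) and 13 of the 30 fallen (43.3%). In BaP, the mean level of these genes at 48 h differed from that at 24 h by a median of 0.19 for the risen, -0.02 for the held and -0.45 for the fallen genes, on the log2 scale and with no test. None of the risen or held genes was higher by more than 1 at 48 h than at 24 h, 4 of the risen genes, AN2398 among them, were lower by more than 1, and so were 3 of the held genes. The levels at 48 and 24 h were compared without centring, and a scale offset between them would shift all these differences alike. The RPKM scale differed from the deposited mean expression by -0.02 at 24 h and 0.06 at 48 h on the log2 scale. All 198 stood on the same side of DMSO at 48 h as at 6 h. AN9310 had means of 24.8, 698 and 1027 RPKM in BaP at 6, 24 and 48 h, and AN3639 had 78.9, 12.4 and 8.98 RPKM.

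Along the chromosomes, 39 pairs of neighbouring shared genes were no more than 3 kb apart, and in 20 of them both genes had the same class. For scale, 38.0% of all shared genes rose, 26.7% held, 27.3% were unresolved and 8.02% fell. Whether neighbours shared a class more often than other genes was not tested. In 10 pairs both had risen, *phk* and *ack* and *awh11* and AN3724 among them, in 0 both had fallen, and in 0 one had risen and the other fallen. In 10 of the 39 pairs the annotated spans overlapped, so that their reads may be shared. The risen genes were found on all 8 chromosomes, with 10 of the 35 shared genes of chromosome VI, 27 of the 66 of chromosome II and 21 of the 45 of chromosome III among them. Over all chromosomes they were 142 of 374 (38.0%).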

How the data were processed

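RNA of A. nidulans hyphae was sequenced from polyadenylated, strand-specific libraries. The submitters' processing notes name FastQC, Subread, featureCounts, limma and Cufflinks, with no versions; the genome build is not given in the sources used here. Each of the 3 tables the authors deposited holds the genes called at 1 time point, with RPKM per library (the unit is not named and was read from the values) and a deposited mean expression on the log2 scale. The authors' fold changes and p-values of BaP against DMSO were not used. Columns name their treatment and time but no replicate number; 0 columns were left without a group. P-values measure the spread between these libraries, as nothing says how the cultures were made separate. The 3 samples taken at the start were not used.

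Genes were matched between the 6 h and 24 h tables by ID. Reads and the library sizes behind the RPKM were inferred for 374 of the 374 genes from whole-number steps, up to a possible whole factor. The mean log2 value on the RPKM scale differed from the deposited mean by a constant in each table. It was -0.15 at 6 h, -0.02 at 24 h and 0.06 at 48 h. The deposited values thus carry 2 scalings, of which at least 1 spans more than a single table. Which of the 2 puts the time points on 1 scale is not shown, so calls of 24 against 6 h are given on both.

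limma 3.58.1 in R 4.3.3 was fitted to log2(RPKM + 1) with a pseudocount of 1, no filter on low values and no covariate: on 6 BaP libraries, on 6 DMSO libraries and on all 12 for the difference of the changes. P-values were adjusted by Benjamini-Hochberg over the 374 genes and the limit was 1 on the log2 scale with a false discovery rate of 0.05. The fits were run on simulated data with noise drawn separately for each gene. A shift of many genes together, as between the DMSO libraries of 24 h, was not simulated. Lists were made from words in the gene descriptions; the words were corrected after values had been seen, and no list was tested. The members and lists were chosen with earlier results of these data known. The text names the 8 largest rises and the 8 largest falls, shared genes named in the study, up to 3 risen and 3 fallen genes and 1 held gene per list, the 5 highest genes in BaP, and 3 genes on either side of the limit; other genes were named after their values were seen. Python 3.11.15, pandas 2.3.3, numpy 2.4.6 and matplotlib 3.10.9 were used for the other steps.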

Additional observations from a re-analysis of the deposited data

How the results depend on the processing

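The count of 172 genes called in BaP at 24 h against 6 h stayed within 1.5 times under a pseudocount of 0.1 (186), a filter at a mean of 1 RPKM (172), a mean-variance trend (172), a false discovery rate of 0.01 (172), 12 libraries in 1 fit (150), centring (115) and 2 alternatives chosen after seeing the data, the scale of the deposited mean expression (155) and voom on recovered reads (189). It was 279 with no limit and 37 with a limit of 2. Leaving out 1 library gave 155 to 195. With limits of -0.5 and 0.5, 12 genes held in place of 100. The share of higher genes among the called was 82.6%, and 33% after centring.

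In DMSO, 27 genes were called, 48 after centring, 11 with a limit of 2, 1 at a false discovery rate of 0.01 and 85 with 12 libraries in 1 fit. Leaving out 1 library gave 0 to 209. The difference of the changes gave 0 to 1 called genes across libraries left out, 1 after centring and 1 without D26 and D27 together, the last chosen after seeing the data; the gene was AN2398 each time.

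None of the 75 named genes changed sign while called, under 15 or 16 alternatives each. A limit of 2 took the call from 30 of them, centring from 20, leaving out B22 from 8, 12 libraries in 1 fit from 7 and the deposited mean scale from 6; leaving out another BaP library took it from 0 to 4. No paired analysis was possible because the columns carry no replicate numbers. The tables hold only genes already selected on these libraries, which limits every count, and genes under 10 reads in a library (7 to 18 of the 374) show no small change.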
